A study of Homo sapiens with 12 samples.

Results

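Long non-coding RNAs were followed in the cytoplasmic fraction of U2OS cells, a human osteosarcoma cell line, after siRNA against DBP5, GLE1 or IPPK. The set held every array probe whose design accession begins NR_ (RefSeq's prefix for non-coding transcripts) and maps in RefSeq to MALAT1, NEAT1, KCNQ1OT1, MEG3, GAS5, TUG1, H19, a symbol beginning SNHG or LINC, or a symbol ending -AS1 or HG. It came to 921 probes for 810 genes of the 34127 probes on the array, and 520 of them, for 455 genes, were tested because in at least 1 siRNA group each of the 3 arrays had flagged the probe as well above its background. Of the 921 probes, 412 were above background on all 12 arrays, 221 on some of them and 288 on none. No probe mapped to NEAT1 or TUG1.

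The 4 groups had 3 one-colour arrays each, and all were U2OS cultures transfected with siRNA at 20 nM: control siRNA, DBP5 siRNA, GLE1 siRNA or IPPK siRNA. No group was left untransfected. Cells were collected 48 h after transfection and the RNA came from the fraction released by a mild NP40 lysis buffer. The methods list 2 siRNAs each for control, GLE1 and IPPK and 1 for DBP5, and which of the control, GLE1 and IPPK siRNAs was put on the arrays is not given in the sources used here. The methods speak of 3 independent array experiments, and the labels number the replicates without saying from which step each was repeated, so p-values measure the spread between these arrays.

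DBP5 is an RNA helicase that sits at the cytoplasmic face of the nuclear pore and helps to release proteins from messenger RNA as it leaves the pore. GLE1 activates it together with inositol hexakisphosphate, the product of the kinase IPPK. Long non-coding RNAs use the same splicing and export machinery to very different degrees. MALAT1 is kept in nuclear speckles and KCNQ1OT1 on chromatin, whereas the spliced RNAs of small nucleolar RNA (snoRNA) host genes, whose introns carry the guides for ribosomal RNA modification, reach the cytoplasm and are turned over there by nonsense-mediated decay. MicroRNA host genes are cut in the nucleus to free a hairpin, LINC genes lie between protein-coding genes, and -AS1 genes are transcribed from the strand opposite a named gene.

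The snoRNA host genes are shown first by where their RNA begins, because a pyrimidine-rich start is a known feature of the class. Many are transcribed from a pyrimidine-rich start of the kind found at ribosomal protein genes, known as a terminal oligopyrimidine start. Each line gives 40 bases of the RNA-like strand from RefSeq (build GRCh38.p14), 10 before the annotated start and 30 from it, with the first 8 transcribed bases in capitals.
SNHG1 (chr11:62855856-62855895, minus strand): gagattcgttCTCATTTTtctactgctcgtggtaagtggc
GAS5 (chr1:173869016-173869055, minus strand): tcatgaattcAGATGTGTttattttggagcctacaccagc
SNHG29 (chr17:16438977-16439016, plus strand): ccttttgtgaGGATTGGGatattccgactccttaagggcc
SNHG12 (chr1:28581844-28581883, minus strand): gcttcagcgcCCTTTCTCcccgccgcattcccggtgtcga
SNHG18 (chr5:9546190-9546229, plus strand): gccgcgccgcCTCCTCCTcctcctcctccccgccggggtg
SNHG10 (chr14:95534843-95534882, minus strand): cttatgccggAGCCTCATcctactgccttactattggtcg
SNHG20 (chr17:77088633-77088672, plus strand): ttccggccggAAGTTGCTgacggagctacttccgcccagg
The 8 capitals of SNHG12 and SNHG18 were all C or T, SNHG1 had 7 of 8, and GAS5 and SNHG29 had 3 and 2. Over the 13 host genes with an entry that could be read, 7 (53.8%) had at least 6 of these 8 bases as C or T, against 17.6% of all 35116 promoters in the table and 17.3% of the 392 promoters of the tested long non-coding RNA genes. An annotated start can lie some bases from the one used in these cells, so the letters are a description. By these annotated starts, RNAs with and without a pyrimidine-rich window occur among those that rose and among those that fell below. The starts used in these cells were not measured.

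For the microRNA host genes the mature microRNAs are shown, since they are what the host RNA is cut to release and some hosts share a seed. The array does not measure the mature forms. The seed, bases 2 to 8, which pairs with target messenger RNAs, is in capitals. All are RefSeq sequences on GRCh38.p14.
hsa-miR-31-5p (MIR31HG, chr9:21512158-21512178, minus strand): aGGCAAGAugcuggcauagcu
hsa-miR-675-5p (H19, chr11:1996800-1996822, minus strand): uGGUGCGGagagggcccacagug
hsa-miR-100-5p (MIR100HG, chr11:122152275-122152296, minus strand): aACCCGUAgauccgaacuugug
hsa-miR-99a-5p (MIR99AHG, chr21:16539101-16539122, plus strand): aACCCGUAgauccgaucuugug
hsa-let-7a-5p (MIR100HG, chr11:122146568-122146589, minus strand): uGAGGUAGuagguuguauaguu
hsa-let-7c-5p (MIR99AHG, chr21:16539838-16539859, plus strand): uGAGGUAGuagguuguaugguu
hsa-miR-17-5p (MIR17HG, chr13:91350618-91350640, plus strand): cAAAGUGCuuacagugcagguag
hsa-miR-20a-5p (MIR17HG, chr13:91351072-91351094, plus strand): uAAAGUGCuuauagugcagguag
MIR100HG and MIR99AHG thus carry microRNAs of the same pair of seeds, ACCCGUA and GAGGUAG, and MIR17HG carries the seed AAAGUGC in both microRNAs shown.

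Each siRNA lowered its target on the arrays. DDX19B, the gene of DBP5, fell by 3.96 on the log2 scale after DBP5 siRNA (limma adjusted p = 3.67e-11), and its paralog DDX19A fell by 4.22 in the same cells. GLE1 fell by 3.30 after GLE1 siRNA, and the IPPK probes A_33_P3371514 and A_33_P3418120 fell by 2.42 and 1.01 after IPPK siRNA. The targets also moved outside their own knock-down, with DDX19B 1.03 lower after GLE1 siRNA and DDX19A 1.73 lower after IPPK siRNA. The IPPK probes were 1.25 and 0.76 lower after DBP5 siRNA and went opposite ways after GLE1 siRNA, where the first was 0.28 lower and the second 1.06 higher (adjusted p = 0.0023 and 4.4e-06). The mesenchymal markers VIM, COL1A1, SPARC, RUNX2, FN1, TWIST1 and CDH2 were above background on all 12 arrays and COL1A2 on 5. Several markers of other cell types, such as EPCAM and PTPRC, were also above background on all 12, so this flag by itself does not separate cell types. Between 73.4% and 77.7% of all probes were above background on each control, DBP5 and GLE1 array and between 70.9% and 73.8% on the IPPK arrays, and no spot was saturated.

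Relative to the other RNAs on the arrays, more long non-coding RNAs fell than rose in the cytoplasm of every knock-down. The normalization sets the bulk of probes level between groups, so a change shared by most cytoplasmic RNAs would not show. Lower and higher are meant in this relative sense throughout. After DBP5 siRNA 182 of the 520 probes (35.0%) were called lower and 84 (16.2%) higher, where 27.2% and 27.1% of all 25879 tested probes were called lower and higher (limma, Benjamini-Hochberg adjusted p under 0.05). After GLE1 siRNA 195 (37.5%) were lower and 101 (19.4%) higher, against 31.0% and 31.0% of all probes. After IPPK siRNA 194 (37.3%) were lower and 77 (14.8%) higher, against 27.7% and 27.4%. On the IPPK arrays fewer probes were above background: 46.7% of the 921 were on all 3 of them against 52.4% on the control arrays, and of all probes 68.8% against 72.9%. With the filter set to all 12 arrays, which left 412 probes, 168 were lower and 65 higher after IPPK siRNA. The shares of all probes under that filter were not counted, so these counts are not to be read against the 27.7% and 27.4%. The median log2 change of the set was -0.14, -0.11 and -0.17 for DBP5, GLE1 and IPPK siRNA, and that of all probes -0.02, 0.02 and -0.02. The 963 other tested NR_ probes, outside the set, were called lower in 30.5%, 35.5% and 32.3% and higher in 16.9%, 20.0% and 17.3%. In these bulk samples a loss of RNA per cell and a loss of cells that hold it cannot be told apart, and the nuclear fraction was not analysed here.

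The excess of falls was also present at larger sizes. With at least 1.5-fold change, 110, 144 and 119 probes were lower after DBP5, GLE1 and IPPK siRNA and 40, 52 and 35 higher. In percent of the set these are 21.2, 27.7 and 22.9 lower and 7.69, 10.0 and 6.73 higher, and for all probes 11.9, 17.5 and 12.4 lower and 13.0, 16.4 and 13.4 higher. Long non-coding RNAs gave dim probes. With all tested probes divided by mean signal into 4 bins of equal size, 42.1% of the set lay in the dimmest bin and 8.46% in the brightest. In the dimmest bin 26.5%, 33.3% and 26.0% of the set were lower after DBP5, GLE1 and IPPK siRNA, against 17.7%, 22.0% and 19.1% of all probes there. In the bin just below the brightest the set had 52.0%, 47.1% and 52.9% lower and all probes 32.6%, 35.4% and 33.1%. Of the 44 brightest, in the top brightness bin, 21, 15 and 22 were lower after DBP5, GLE1 and IPPK siRNA, against 31.1%, 35.5% and 31.4% of all probes there, so the GLE1 share of the set, 34.1%, was not above that of all probes. Higher in that bin were 7, 16 and 7 of the 44, so that after GLE1 siRNA the set had no excess of falls there, with 36.4% higher beside 36.7% of all probes. In the dimmest bin 13.2%, 14.2% and 14.6% of the set were higher, beside 16.5%, 18.0% and 16.9% of all probes, and in the bin just below the brightest 20.6%, 26.5% and 14.7%, beside 33.3%, 37.5% and 32.1%. A probe that passed the filter through 1 group alone had to differ from another group, so these shares describe the probes that passed and not all 921.

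**Figure D1:**
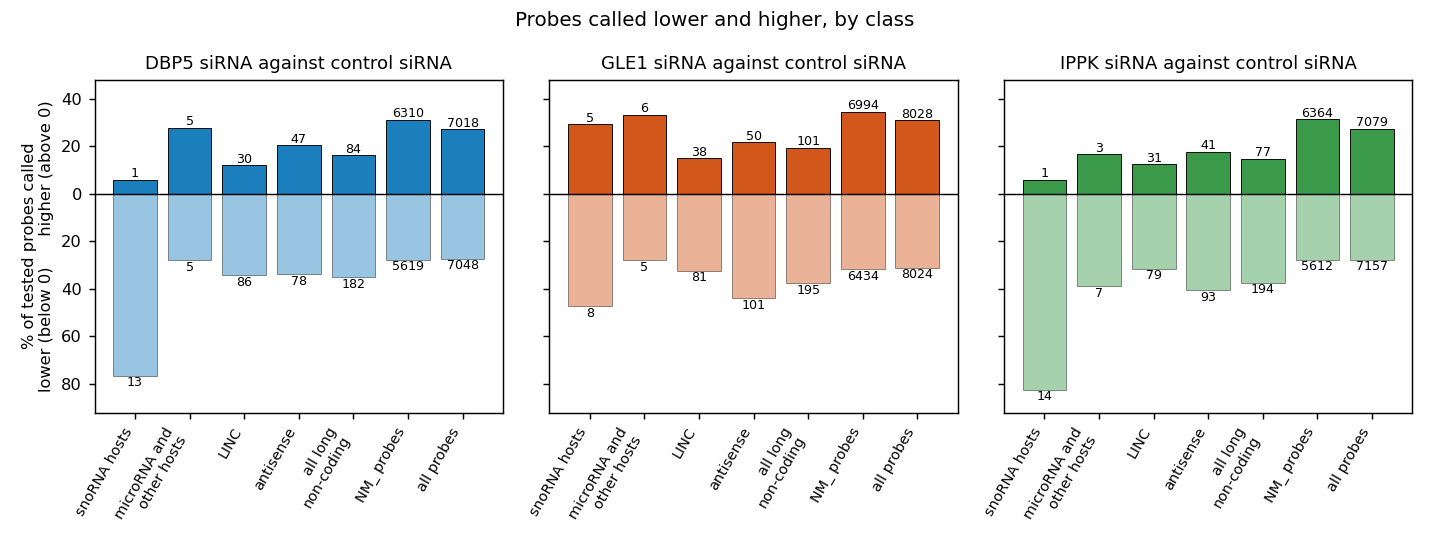
Percent of tested probes called higher (bars above 0) and lower (bars below 0) after each siRNA against control siRNA, for the classes of long non-coding RNA, for probes with an NM_ (messenger RNA) accession and for all probes, with the number of probes at each bar. The lower bars exceed the higher bars for snoRNA hosts, LINC and antisense RNAs in each panel, as with 13 lower and 1 higher snoRNA host after DBP5 siRNA, while NM_ probes had 5619 lower and 6310 higher there.

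The snoRNA host genes fell after DBP5 and IPPK siRNA and split after GLE1 siRNA. Of 17 probes for 16 genes, 13 were lower and 1 higher after DBP5 siRNA, 14 lower and 1 higher after IPPK siRNA, and 8 lower and 5 higher after GLE1 siRNA. In percent these are 76.5, 82.4 and 47.1 lower and 5.88, 5.88 and 29.4 higher, where between 27.1 and 31.0 of all probes were called in each direction. Every one of the 17 was called in at least 1 knock-down. The share of all probes called in at least 1 knock-down was not counted, so this does not set the class apart from the array. The remaining member, SNHG4, was above background on 5 arrays and was not tested.

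SNHG1 and GAS5 rose after GLE1 siRNA and fell after the other 2 siRNAs. SNHG1 read 14.52, 14.57 and 14.43 on the control arrays, 13.92, 13.90 and 13.73 after DBP5 siRNA, 15.43, 15.36 and 15.41 after GLE1 siRNA, and 14.02, 13.97 and 13.93 after IPPK siRNA (log2 intensity). Its GLE1 arrays lay above all others and its DBP5 and IPPK arrays below the controls, without overlap. The log2 changes were -0.66 (SE 0.06, adjusted p = 7.6e-06), 0.89 (adjusted p = 4.5e-07) and -0.53 (adjusted p = 3.5e-05), which is 1.58-fold lower, 1.86-fold higher and 1.44-fold lower.
GAS5, a growth-arrest transcript that carries box C/D snoRNAs, read 16.19, 16.33 and 16.29 in control, 15.89, 15.80 and 15.89 after DBP5, 16.88, 16.87 and 16.84 after GLE1 and 16.03, 15.82 and 15.82 after IPPK siRNA. The groups again lay apart from control, at 1.33-fold lower, 1.51-fold higher and 1.30-fold lower (log2 changes -0.41, 0.59 and -0.38, SE 0.07, adjusted p = 0.00037, 1.7e-05 and 0.00059). The window at the annotated start shown above is pyrimidine-rich for SNHG1 and not for GAS5. Whether GAS5 RNA begins at that base in these cells was not examined.

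SNHG29 and SNHG6 rose after GLE1 siRNA with smaller or no change in the other cells. SNHG29 read 16.31, 16.30 and 16.30 in control and 17.02, 16.89 and 16.87 after GLE1 siRNA, a 1.54-fold rise without overlap. After DBP5 siRNA it was 0.21 higher (adjusted p = 0.0101), a call lost on the authors' processed values, where it was 0.22, and after IPPK siRNA its log2 change was 0.10 (adjusted p = 0.16). SNHG6 rose 1.36-fold after GLE1 siRNA (log2 change 0.44, SE 0.04, adjusted p = 7.5e-06) and had a log2 change of -0.01 after DBP5 siRNA. The small log2 change of 0.15 in IPPK cells was lost when arrays were scaled to the 75th percentile, where it was 0.09, and without IPPK replicate 2, where it was 0.14.

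SNHG20 had the largest fall in the class. It read 8.87, 8.95 and 8.95 in control, 7.11, 7.14 and 6.85 after DBP5 siRNA, 7.89, 7.84 and 7.73 after GLE1 siRNA and 7.86, 7.70 and 7.83 after IPPK siRNA. All 9 knock-down arrays lay below the controls, and the DBP5 arrays below the rest. The falls were 3.71-fold, 2.15-fold and 2.18-fold (log2 changes -1.89, -1.10 and -1.13, SE 0.08, adjusted p = 3.9e-08, 8.2e-07 and 1.1e-06).

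SNHG10, SNHG17, SNHG18, SNHG12 and both probes of SNHG7 were also lower in all 3 knock-downs. SNHG18 read 11.65, 11.76 and 11.58 in control and 10.61, 10.48 and 10.45 after IPPK siRNA, a 2.22-fold fall, with 1.30-fold and 1.53-fold falls after DBP5 and GLE1 siRNA. SNHG10 fell from a mean of 11.04 (SD 0.08, n = 3) in control to 10.04 (SD 0.02, n = 3) after IPPK siRNA, 2.01-fold lower, and was 1.60-fold and 1.69-fold lower in the other cells. SNHG17 was 1.35-fold, 1.37-fold and 1.55-fold lower after DBP5, GLE1 and IPPK siRNA. The SNHG7 probe A_24_P352116 fell 1.94-fold, 2.53-fold and 1.92-fold and the probe A_33_P3280927, designed on another SNHG7 transcript, 1.37-fold, 1.23-fold and 1.48-fold. SNHG12 fell by 0.32, 0.37 and 0.21 on the log2 scale, and its IPPK call was lost without control replicate 1 or 2 or without IPPK replicate 2 or 3, where the change was -0.19, -0.19, -0.19 and -0.18, and under normexp background correction, where it was -0.11.

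Another pattern was a fall after DBP5 and IPPK siRNA with no call after GLE1 siRNA. SNHG5 read 14.56, 14.60 and 14.51 in control, 14.00, 14.10 and 14.10 after DBP5 siRNA, 14.46, 14.64 and 14.51 after GLE1 siRNA and 14.00, 13.96 and 13.99 after IPPK siRNA. Its GLE1 arrays overlapped the controls and the others lay below them, with log2 changes of -0.49, -0.02 and -0.57. SNHG3 changed by -0.53, 0.03 and -0.32 and SNHG15 by -0.49, 0.19 and -0.30. The SNHG15 value in GLE1 cells had an adjusted p of 0.069 and was called higher under several alternatives, among them with an adjusted p of 0.0032 on the authors' processed values, 0.012 on the 6 arrays compared, 0.013 with normexp, 0.038 with quantile normalization and 0.043 with the replicate number as a block, and without IPPK replicate 1 (0.011).
SNHG8 was 0.14 lower, 0.15 higher and 0.20 lower. These are small changes, and the DBP5 call was lost without any 1 control array or DBP5 replicate 1 or 2 (-0.12 to -0.14) and the GLE1 call without GLE1 replicate 1 (0.14). SNHG11 was called only after IPPK siRNA, at -0.40 (adjusted p = 0.00052), and SNHG9 only after GLE1 siRNA, at -0.41 (adjusted p = 8.1e-05). Which of the 3 siRNAs gave a call therefore differed from gene to gene. A call beside no call is not by itself a difference between siRNAs.

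The differences between knock-downs were tested directly. GLE1 against DBP5 siRNA had 10 of the 17 host probes higher and 3 lower, where 26.6% and 27.8% of all probes were higher and lower. GLE1 against IPPK siRNA had 13 higher and 2 lower, where 29.7% and 30.4% of all probes were. SNHG1 was 2.93-fold higher in GLE1 than in DBP5 cells and 2.69-fold higher than in IPPK cells (adjusted p = 1.9e-08 and 2.1e-08), and GAS5 2.00-fold and 1.96-fold higher (adjusted p = 5.1e-07 and 4.7e-07). Between DBP5 and IPPK cells 3 host probes were lower in DBP5 and 4 higher, where 24.9% and 23.9% of all probes were, and SNHG1 differed by -0.12 (adjusted p = 0.13).

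**Figure D2:**
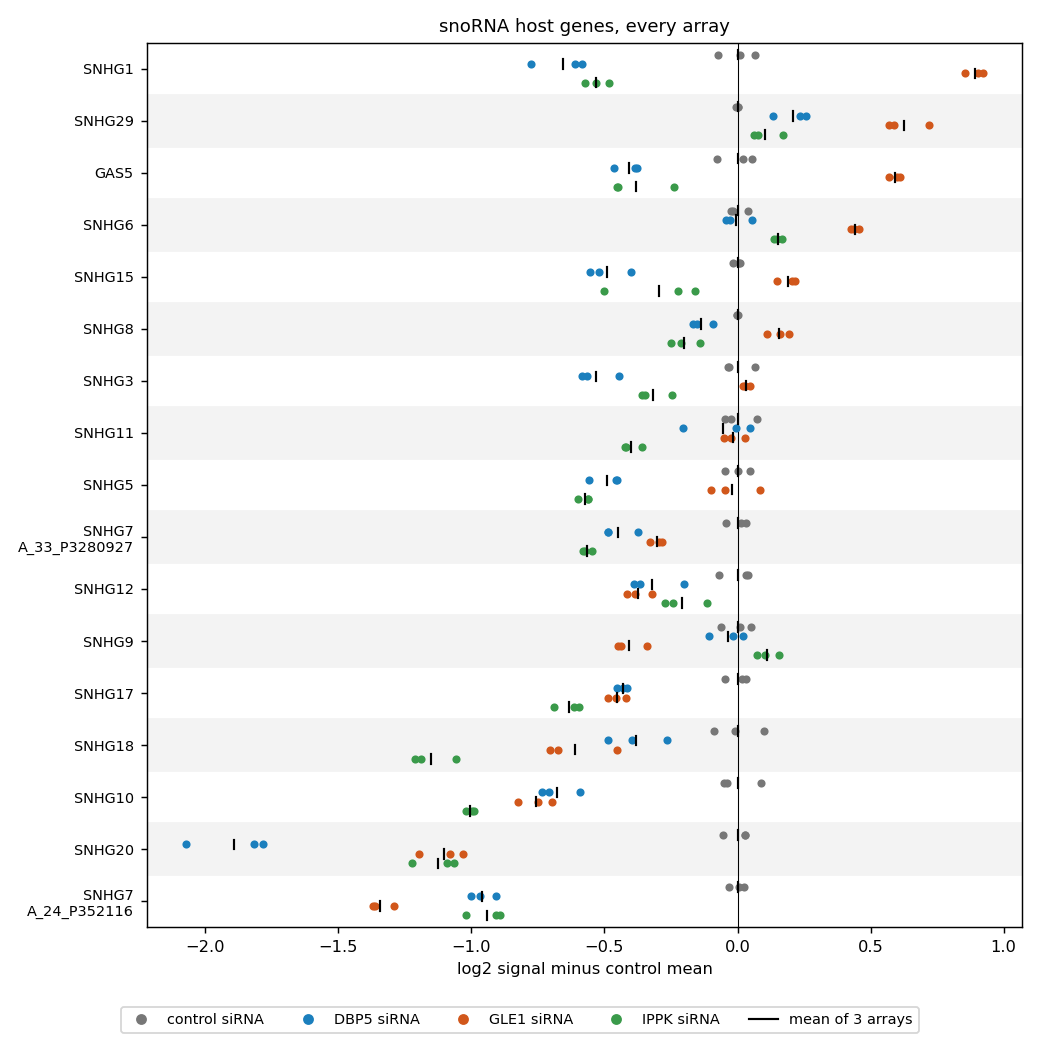
Log2 signal of each snoRNA host probe on every array, minus the mean of the 3 control arrays, with points for arrays coloured by siRNA and a black bar for each group mean, ordered by the GLE1 change. SNHG1, SNHG29 and GAS5 lie to the right after GLE1 siRNA, with SNHG1 at 0.89, and SNHG20 lies to the left in every knock-down, at -1.89, -1.10 and -1.13.

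Of the nuclear-retained RNAs, KCNQ1OT1 was higher in the cytoplasmic fraction of every knock-down, relative to the other RNAs measured. MALAT1 was called higher in none. KCNQ1OT1, an imprinted RNA that silences neighbouring genes on chromatin, read 12.33, 12.38 and 12.43 in control, 13.04, 12.88 and 13.14 after DBP5 siRNA, 13.20, 13.24 and 13.23 after GLE1 siRNA and 12.52, 12.68 and 12.60 after IPPK siRNA (probe A_33_P3236267). All knock-down arrays lay above the controls. The rises were 1.56-fold (adjusted p = 2.3e-05), 1.80-fold (adjusted p = 1.9e-06) and 1.16-fold (adjusted p = 0.022), on the log2 scale 0.64, 0.84 and 0.22 with an SE of 0.07. The IPPK call was lost without control replicate 1 or 2 or IPPK replicate 2 or 3, where the change was 0.19, 0.22, 0.18 and 0.22. The other KCNQ1OT1 probe, A_33_P3294031, was above background on 4 arrays and was not tested.

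MALAT1 read 8.54, 8.67 and 8.37 in control, 8.16, 7.89 and 7.94 after DBP5 siRNA, 8.42, 7.64 and 8.54 after GLE1 siRNA and 7.91, 7.16 and 7.27 after IPPK siRNA. The IPPK arrays lay below the controls and were 2.11-fold lower (log2 change -1.08, SE 0.25, adjusted p = 0.0034). The GLE1 arrays overlapped the controls, with GLE1 replicate 2 well below the other 2, and the log2 change was -0.33 (adjusted p = 0.28). After DBP5 siRNA the arrays did not overlap the controls but the log2 change of -0.53 missed the threshold (adjusted p = 0.095). It passed on the 6 arrays compared alone (adjusted p = 0.0071), without GLE1 replicate 2, an array that enters only the shared estimate of the spread (adjusted p = 0.032), with the replicate block and scaling to the 75th percentile (adjusted p = 0.042), and on the authors' processed values (-0.46, adjusted p = 0.0496). For MEG3, a maternally expressed imprinted RNA, the probe A_32_P40547 rose 1.24-fold after GLE1 siRNA (log2 change 0.31, SE 0.09, adjusted p = 0.011) and had log2 changes of -0.08 and 0.05 after DBP5 and IPPK siRNA. The other MEG3 probe, A_33_P3255434, was called in none and its SE of 0.44 was large, with 8.05, 7.31 and 6.20 on the GLE1 arrays.

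MicroRNA host genes moved in both directions. Of the 18 tested probes for 16 genes, H19 among them, 5 were lower and 5 higher after DBP5 siRNA, 5 lower and 6 higher after GLE1 siRNA, and 7 lower and 3 higher after IPPK siRNA. The shares of 27.8% lower and 27.8% higher after DBP5 siRNA were close to the 27.2% and 27.1% of all probes, those after GLE1 siRNA were 27.8% and 33.3% against 31.0% and 31.0%, and those after IPPK siRNA 38.9% and 16.7% against 27.7% and 27.4%, a difference of a few probes. Of the 12 probes of the class that were not tested, MIR124-1HG and MIR503HG were above background on 5 arrays, MIR600HG on 4, MIR663AHG and 1 probe of MIR99AHG on 1, and 7 on none, MIR155HG among them.

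MIR31HG, the host of miR-31, rose in every knock-down from a control level near the background. It read 3.67, 3.17 and 3.43 in control, where 1 of 3 arrays was above background, and 5.94, 5.85 and 5.79 after DBP5 siRNA, 6.10, 6.34 and 6.35 after GLE1 siRNA and 6.63, 6.79 and 6.70 after IPPK siRNA. All 9 knock-down arrays were far above the 3 controls. The rises were 5.41-fold, 7.15-fold and 9.73-fold (log2 changes 2.44, 2.84 and 3.28, SE 0.12, adjusted p = 6.7e-08, 1.0e-08 and 7.6e-09), but these folds rest on a control mean for which 2 of 3 arrays were not above background. With normexp background correction, which compresses dim probes, the log2 changes were 0.81, 1.00 and 1.24, all still called. Against each other, IPPK cells were 1.36-fold above GLE1 cells (adjusted p = 0.0075) and 1.80-fold above DBP5 cells (adjusted p = 0.00017).

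MIR22HG rose after GLE1 siRNA. It read 9.39, 9.51 and 9.51 in control and 11.07, 11.23 and 11.19 after GLE1 siRNA, a 3.23-fold rise (log2 change 1.69, SE 0.07, adjusted p = 8.5e-09), and was 2.75-fold and 3.71-fold above DBP5 and IPPK cells (adjusted p = 4.7e-08 and 6.3e-09). After DBP5 siRNA it was 0.23 higher and after IPPK siRNA 0.20 lower. The DBP5 call was lost without control replicate 1 (0.19) or DBP5 replicate 3 (0.17), and the IPPK call without control replicate 2 or 3 (-0.18 and -0.18) or IPPK replicate 1 or 3 (-0.19 and -0.18).

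H19, an imprinted RNA expressed from the maternal chromosome, fell after DBP5 and IPPK siRNA. It read 8.11, 8.06 and 8.23 in control, 6.64, 6.98 and 6.47 after DBP5 siRNA, 8.04, 8.02 and 7.98 after GLE1 siRNA and 6.71, 6.64 and 6.71 after IPPK siRNA. The DBP5 and IPPK arrays lay far below the rest, and the GLE1 arrays just under the controls. The falls were 2.70-fold and 2.72-fold (log2 changes -1.44 and -1.44, SE 0.11, adjusted p = 1.5e-06 and 1.3e-06), and the GLE1 change was -0.12 (adjusted p = 0.38). GLE1 cells stood 2.49-fold above DBP5 cells and 2.50-fold above IPPK cells (adjusted p = 2.7e-06 and 2.0e-06).

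MIR100HG and MIR99AHG, whose microRNAs share the seeds printed above, went opposite ways after DBP5 and IPPK siRNA. MIR100HG read 9.71, 9.83 and 9.83 in control, 9.12, 9.12 and 9.25 after DBP5 siRNA, 8.54, 8.64 and 8.64 after GLE1 siRNA and 9.09, 9.18 and 9.11 after IPPK siRNA. It was lower on every knock-down array, by 1.55-fold, 2.28-fold and 1.59-fold (adjusted p = 7.4e-06, 3.9e-08 and 4.5e-06). The MIR99AHG probe A_24_P229536 was near the background and read 4.03, 3.89 and 3.99 in control and 5.04, 5.12 and 5.34 after DBP5 siRNA, with rises of 2.29-fold, 1.33-fold and 1.57-fold.
On the log2 scale these shrank to 0.25, 0.05 and 0.12 with normexp background correction, and the GLE1 and IPPK calls were lost. The MIR99AHG probe A_33_P3312384 rose by 1.19 after DBP5 siRNA and 1.01 after IPPK siRNA, or 0.36 and 0.35 with normexp, and after GLE1 siRNA it was above background on no array and in control on 1, so no change is given there.

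MIR17HG, which carries the cluster that begins with miR-17, fell after GLE1 siRNA. It read 4.83, 5.33 and 4.99 in control and 3.94, 3.58 and 4.19 after GLE1 siRNA, where 2 of 3 arrays were above background. The fall was 2.22-fold (log2 change -1.15, SE 0.21, adjusted p = 0.0006), or -0.31 with normexp background correction, and the DBP5 and IPPK changes of -0.43 and -0.39 missed the threshold. The IPPK change passed it without IPPK replicate 1, at -0.57, and the DBP5 change on the 6 arrays compared alone (adjusted p = 0.037).

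Other hosts changed in 1 or more knock-downs. MIR924HG fell by 1.31, 2.12 and 0.86 on the log2 scale after DBP5, GLE1 and IPPK siRNA, or -0.67, -0.97 and -0.49 with normexp. MIR550A3HG fell by 1.05, 0.28 and 0.59. MIR23AHG, host of the miR-23a, miR-27a and miR-24-2 cluster, rose by 0.56 after GLE1 siRNA (adjusted p = 0.00017), and its DBP5 value of 0.22 (adjusted p = 0.046) lost the call without 1 array or with any of several other settings.
MIR4435-2HG was 0.37 lower after DBP5 siRNA and 0.30 higher after GLE1 siRNA, and its IPPK value of -0.15 had an adjusted p of 0.048, and of 0.053 with the replicate block. MIR3936HG was 0.81 higher after GLE1 siRNA (0.46 with normexp), and its DBP5 value of 0.19, with no call, was called with the filter on all 12 arrays (adjusted p = 0.045) and without control replicate 2 (0.24), GLE1 replicate 3 or IPPK replicate 1. MIR4453HG was called only after IPPK siRNA, 0.48 lower (0.32 lower with normexp). MIR124-2HG, MIR7-3HG, MIR9-3HG and both probes of MIRLET7BHG were called in none, although with the replicate block MIR9-3HG was called after DBP5 and GLE1 siRNA, at -0.23 and -0.27, and after GLE1 siRNA also with normexp (-0.24) and on the authors' processed values (-0.23).

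**Figure D3:**
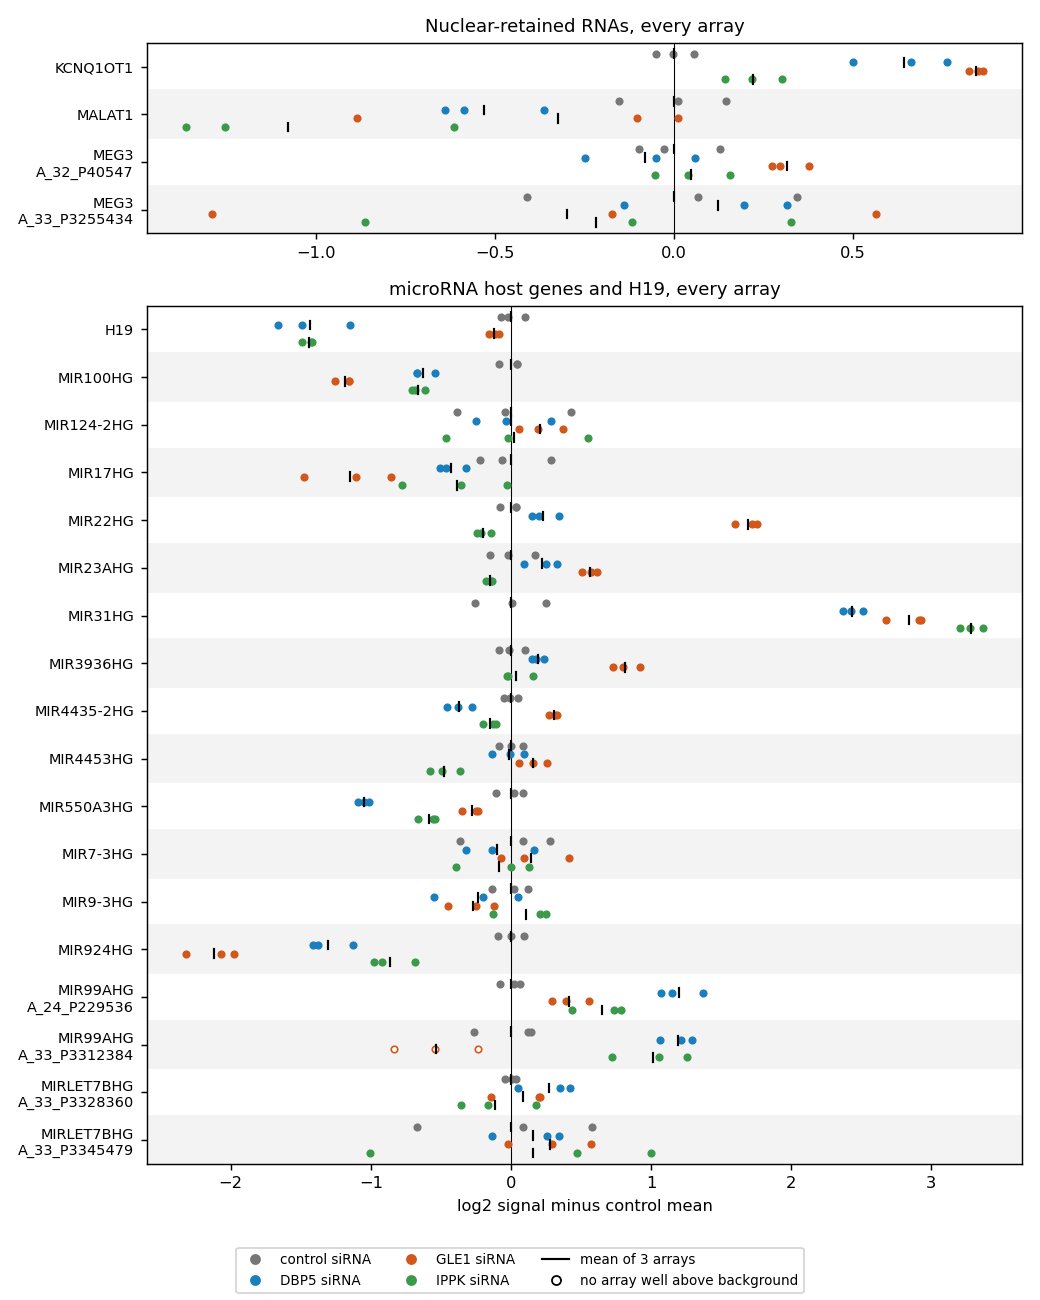
Log2 signal of the nuclear-retained RNAs (upper panel) and of microRNA host genes and H19 (lower panel) on every array, minus the mean of the 3 control arrays, coloured by siRNA, with a black bar for each group mean and open points for groups in which no array was well above background. MIR31HG lies far to the right in all 3 knock-downs at 2.44, 2.84 and 3.28, MIR22HG at 1.69 after GLE1 siRNA, and H19 to the left at -1.44 after DBP5 and IPPK siRNA.

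LINC RNAs, transcribed between protein-coding genes, fell more often than they rose. Of 251 tested probes, 86 were lower and 30 higher after DBP5 siRNA, 81 and 38 after GLE1 siRNA, and 79 and 31 after IPPK siRNA. The lower shares were 34.3%, 32.3% and 31.5%, against 27.2%, 31.0% and 27.7% of all probes, so that after GLE1 siRNA the share was near that of all probes. The higher shares were at most 15.1%, against 27.1%, 31.0% and 27.4%. The members below are those with the largest changes in a knock-down, or with calls in both directions.

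LINC00239 and LINC01056 fell in all 3 knock-downs. LINC00239 read 10.58, 10.77 and 10.55 in control, 8.67, 8.26 and 8.44 after DBP5 siRNA, 8.88, 8.76 and 8.77 after GLE1 siRNA and 9.56, 9.54 and 9.47 after IPPK siRNA. Every knock-down array lay below the controls, and the IPPK arrays lay between the controls and the other 2 groups. The falls were 4.51-fold, 3.55-fold and 2.16-fold (log2 changes -2.17, -1.83 and -1.11, SE 0.10, adjusted p = 4.5e-08, 6.6e-08 and 4.2e-06).
LINC01056 fell by 2.45, 2.45 and 1.93, or -1.27, -1.29 and -1.08 with normexp background correction. LINC01547 fell by 1.35, 2.45 and 1.59 at the probe A_23_P309198, whereas its probe A_23_P211196, on another transcript, gave -0.15 (no call), -0.92 and -0.60. The pattern across knock-downs was thus shared by the 2 probes after GLE1 and IPPK siRNA and not after DBP5 siRNA.

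LINC00473, a transcript known to be induced by cAMP signalling, fell after DBP5 and GLE1 siRNA, with a much smaller change after IPPK siRNA. It read 8.38, 8.61 and 8.44 in control, 6.14, 6.12 and 6.20 after DBP5 siRNA, 6.77, 6.89 and 6.92 after GLE1 siRNA and 8.33, 8.38 and 8.33 after IPPK siRNA. The DBP5 and GLE1 arrays lay over 1 log2 unit below all the others. The changes were 4.99-fold lower (adjusted p = 3.5e-09), 3.06-fold lower (adjusted p = 1.0e-08) and -0.13 on the log2 scale for IPPK siRNA (SE 0.07, adjusted p = 0.13). The IPPK change was called lower with scaling to the 75th percentile (-0.17, adjusted p = 0.026, and 0.039 with the replicate block), with quantile normalization (-0.17, adjusted p = 0.043) and on the authors' processed values (-0.18, adjusted p = 0.041).

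For some falls the knock-down arrays were all at the background and only a bound can be given. LINC01366 was at least 4.46-fold lower after GLE1 siRNA, with means of 6.05 in control and 3.89, and at least 3.78-fold lower after IPPK siRNA, with a mean of 3.92 (adjusted p = 1.7e-06 and 2.9e-06). LINC00189 was at least 4.49-fold lower after IPPK siRNA, with means of 6.18 and 2.77 (adjusted p = 6.2e-06), and 2.71-fold and 2.50-fold lower after DBP5 and GLE1 siRNA, where all arrays were above background. A bound sets the mean of the bright group against the dimmest signal that counts as above background on each dim array, or against the dim probe itself where that is higher.

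LINC00324, LINC00589 and LINC00294 had the largest rises among LINC probes after GLE1 siRNA. LINC00324 read 4.68, 4.37 and 4.57 in control, 5.33, 5.51 and 5.76 after DBP5 siRNA, 7.86, 8.04 and 8.07 after GLE1 siRNA and 4.95, 4.91 and 4.90 after IPPK siRNA. The GLE1 arrays stood over 2 log2 units above every other array. The rise after GLE1 siRNA was 10.9-fold (log2 change 3.45, adjusted p = 2.2e-09) and that after DBP5 siRNA 1.99-fold (log2 change 1.00, adjusted p = 2.5e-05), and with normexp the log2 changes were 1.95 and 0.40. The IPPK value of 0.38 lost its call with normexp (0.14) and without control replicate 2 (0.30).
LINC00294 read 9.26, 9.33 and 9.23 in control, 10.28, 10.48 and 10.39 after DBP5 siRNA, 11.21, 11.33 and 11.33 after GLE1 siRNA and 9.47, 9.60 and 9.60 after IPPK siRNA. The 4 groups formed separate steps, with rises of 2.16-fold, 4.05-fold and 1.22-fold (adjusted p = 2.7e-07, 2.4e-09 and 0.0040). LINC00589 read 6.84, 6.93 and 6.81 in control and 9.09, 9.23 and 9.34 after GLE1 siRNA. It rose 5.14-fold after GLE1 siRNA and 1.77-fold after IPPK siRNA (adjusted p = 1.9e-09 and 5.0e-06). Its DBP5 change of 0.21 was called too (adjusted p = 0.0375), a call lost with scaling to the 75th percentile (0.15), with normexp (0.10), on the authors' processed values (0.09) and without control replicate 1 or 3, DBP5 replicate 1 or 3 or GLE1 replicate 2 (0.17 to 0.22). LINC02893 was above background on no control array. It could pass the filter only through a knock-down group, so it had to be higher than control there. Its mean was 3.57 in control, 4.90 after DBP5 siRNA and 5.24 after GLE1 siRNA, at least 2.10-fold and 2.64-fold higher.

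LINC00518 and LINC01545 rose after DBP5 and IPPK siRNA and had no call after GLE1 siRNA. LINC00518, known as a melanoma marker, read 5.29, 5.57 and 5.51 in control, 6.28, 6.40 and 6.28 after DBP5 siRNA, 5.33, 5.45 and 5.25 after GLE1 siRNA and 6.71, 6.74 and 6.84 after IPPK siRNA. The GLE1 arrays overlapped the controls, with 1 below all of them, and the other groups lay above. The rises were 1.82-fold and 2.48-fold (log2 changes 0.86 and 1.31, or 0.47 and 0.70 with normexp), and GLE1 cells differed from both (log2 differences -0.97 and -1.42, adjusted p = 3.4e-06 and 1.6e-07). The GLE1 value of -0.11 was called lower without control replicate 1, at -0.20. LINC01545 changed by 0.68, 0.17 and 1.19.

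Some LINC members fell in 1 knock-down and rose in another. LINC00640 read 7.83, 7.97 and 7.84 in control, 7.25, 7.29 and 7.35 after DBP5 siRNA, 8.42, 8.54 and 8.51 after GLE1 siRNA and 6.58, 6.55 and 6.55 after IPPK siRNA, so that no 2 groups overlapped. Its log2 changes were -0.58, 0.61 and -1.32 (SE 0.06, adjusted p = 7.7e-06, 3.7e-06 and 2.1e-08). LINC02487 had the same order, with -0.67, 0.41 and -1.74 (adjusted p = 2.0e-05, 0.00057 and 1.9e-08).
LINC00467 ran the other way at both of its probes, which fell by 1.10 and 1.53 after GLE1 siRNA (adjusted p = 8.2e-08 and 6.2e-08) and had 0.17 and 0.30 after DBP5 siRNA and no call after IPPK siRNA. The smaller DBP5 value was lost on leaving out single arrays (0.12 without control replicate 3), and the IPPK value of 0.14 at the same probe was called without control replicate 2 (0.20) and with scaling to the 75th percentile (0.15, adjusted p = 0.045). LINC00842 rose 2.33-fold after GLE1 siRNA (log2 change 1.22) and was 0.21 and 0.38 lower after DBP5 and IPPK siRNA, of which the DBP5 call was lost without control replicate 3 or DBP5 replicate 2 (-0.17 and -0.17).

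Antisense RNAs also had more falls than rises in each knock-down. Of 230 tested probes, 101 were lower and 50 higher after GLE1 siRNA, 78 and 47 after DBP5 siRNA, and 93 and 41 after IPPK siRNA. In the order DBP5, GLE1 and IPPK siRNA, 33.9%, 43.9% and 40.4% were lower, against 27.2%, 31.0% and 27.7% of all probes, and 20.4%, 21.7% and 17.8% higher, against 27.1%, 31.0% and 27.4%. Between GLE1 and DBP5 cells 77 were lower in GLE1 cells (33.5%) and 45 higher (19.6%), where 27.8% and 26.6% of all probes were.

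KDM4A-AS1, named for the histone demethylase gene KDM4A, fell in every knock-down. It read 11.35, 11.44 and 11.33 in control, 9.86, 9.89 and 9.84 after DBP5 siRNA, 8.80, 8.80 and 8.80 after GLE1 siRNA and 9.11, 9.16 and 9.14 after IPPK siRNA. The 4 groups were apart from each other and the SD within each was under 0.1. The falls were 2.85-fold, 5.96-fold and 4.72-fold (log2 changes -1.51, -2.58 and -2.24, adjusted p = 3.8e-09, 1.2e-10 and 4.4e-10).

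PAX8-AS1 fell most after IPPK siRNA and SPATA3-AS1 most after GLE1 siRNA. PAX8-AS1, from the locus of a thyroid and kidney transcription factor, read 11.29, 11.28 and 11.25 in control, 9.83, 9.84 and 9.83 after DBP5 siRNA, 10.81, 10.67 and 11.11 after GLE1 siRNA and 8.40, 8.30 and 8.38 after IPPK siRNA. Its groups did not overlap, and the falls were 2.71-fold, 1.32-fold and 7.51-fold (adjusted p = 4.6e-07, 0.0029 and 3.8e-09). SPATA3-AS1 read 9.07, 9.30 and 9.01 in control and between 5.963 and 5.995 after GLE1 siRNA, an 8.87-fold fall (log2 change -3.15, adjusted p = 6.6e-10), beside 2.31-fold and 1.33-fold falls after DBP5 and IPPK siRNA.

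ZBED3-AS1 was below background on the GLE1 arrays alone. It read 5.33, 5.89 and 5.64 in control, 5.80, 5.87 and 5.95 after DBP5 siRNA, 1.76, 2.02 and 1.84 after GLE1 siRNA and 6.04, 6.15 and 6.02 after IPPK siRNA, and no GLE1 array was above background. It was at least 3.69-fold lower after GLE1 siRNA (means 5.62 and 1.87, adjusted p = 2.6e-09). After DBP5 siRNA the change was 0.25 (adjusted p = 0.12, and 0.047 with the replicate block), and after IPPK siRNA 0.45 (adjusted p = 0.0103), a call lost with normexp (0.17). CACNA1G-AS1 was at least 3.03-fold and 2.50-fold lower after GLE1 and IPPK siRNA (means 5.33 in control, 3.43 and 3.03, adjusted p = 0.00017 and 5.4e-05).

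FRMD6-AS1, named for a gene upstream in Hippo signalling, fell 2.26-fold, 4.29-fold and 4.01-fold after DBP5, GLE1 and IPPK siRNA. Its log2 changes were -1.18, -2.10 and -2.00, or -0.69 and -1.02 after DBP5 and GLE1 siRNA with normexp. The 4 probes of B3GALT5-AS1 were not alike: A_32_P34826 changed by -2.74, -2.69 and -1.74, A_33_P3266536 by -2.42, -2.18 and -1.45, A_24_P267664 by -0.89, -0.80 and -0.52, and A_33_P3278347, designed on another transcript, by -0.26, -0.06 and -0.15, of which only the first was called. With normexp the first probe gave -1.73, -1.73 and -1.26.

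Among antisense probes above background on every control array, SNAI3-AS1 had the largest rise after DBP5 siRNA and DPP10-AS1 the largest after GLE1 and IPPK siRNA. DPP10-AS1 read 9.09, 9.21 and 9.15 in control, 10.52, 10.35 and 10.40 after DBP5 siRNA, 11.28, 11.18 and 11.28 after GLE1 siRNA and 10.52, 10.66 and 10.60 after IPPK siRNA. All 9 knock-down arrays lay over 1 log2 unit above the controls, with rises of 2.42-fold, 4.28-fold and 2.71-fold (adjusted p = 7.5e-08, 1.4e-09 and 2.6e-08).
SNAI3-AS1, from the locus of a Snail family transcription factor, read 7.33, 7.23 and 7.44 in control and 9.18, 9.39 and 9.46 after DBP5 siRNA, a 4.03-fold rise (adjusted p = 4.5e-08), with 1.79-fold and 1.93-fold rises after GLE1 and IPPK siRNA. Its probe A_33_P3388938 rose 1.94-fold, 1.44-fold and 1.79-fold. MSC-AS1 rose 3.06-fold, 3.42-fold and 3.22-fold (adjusted p = 4.1e-06, 1.2e-06 and 2.7e-06), with 2 of 3 control arrays above background. TNFRSF10B-AS1, named for a death receptor gene and also above background on 2 control arrays, rose by 2.33 on the log2 scale after GLE1 siRNA (adjusted p = 7.6e-07). JAKMIP2-AS1 was above background on no control or DBP5 array and on 2 of 3 IPPK arrays. It was tested through its GLE1 arrays alone, so it had to be higher than control there, with a mean of 4.51 against 2.21. Its fitted log2 changes were 1.14, 2.30 and 2.56 after DBP5, GLE1 and IPPK siRNA, so the IPPK value was the largest. These sizes rest on a control with no array above background, and the DBP5 value has none on either side.

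Some antisense members had calls in both directions. DLGAP1-AS1, named for a postsynaptic scaffold gene, read 13.99, 14.06 and 13.92 in control, 13.56, 13.68 and 13.62 after DBP5 siRNA, 13.23, 13.40 and 13.31 after GLE1 siRNA and 14.54, 14.42 and 14.42 after IPPK siRNA. It was lower on all DBP5 and GLE1 arrays and higher on all IPPK arrays, with log2 changes of -0.37, -0.68 and 0.47 (adjusted p = 0.00065, 4.8e-06 and 0.00012). SVIL-AS1 rose 1.84-fold after GLE1 siRNA and fell 1.27-fold after IPPK siRNA (log2 changes 0.88 and -0.34, adjusted p = 2.3e-07 and 0.00041), with 0.14 after DBP5 siRNA (adjusted p = 0.0565, and 0.045 with normexp and 0.035 on the authors' processed values).

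**Figure D4:**
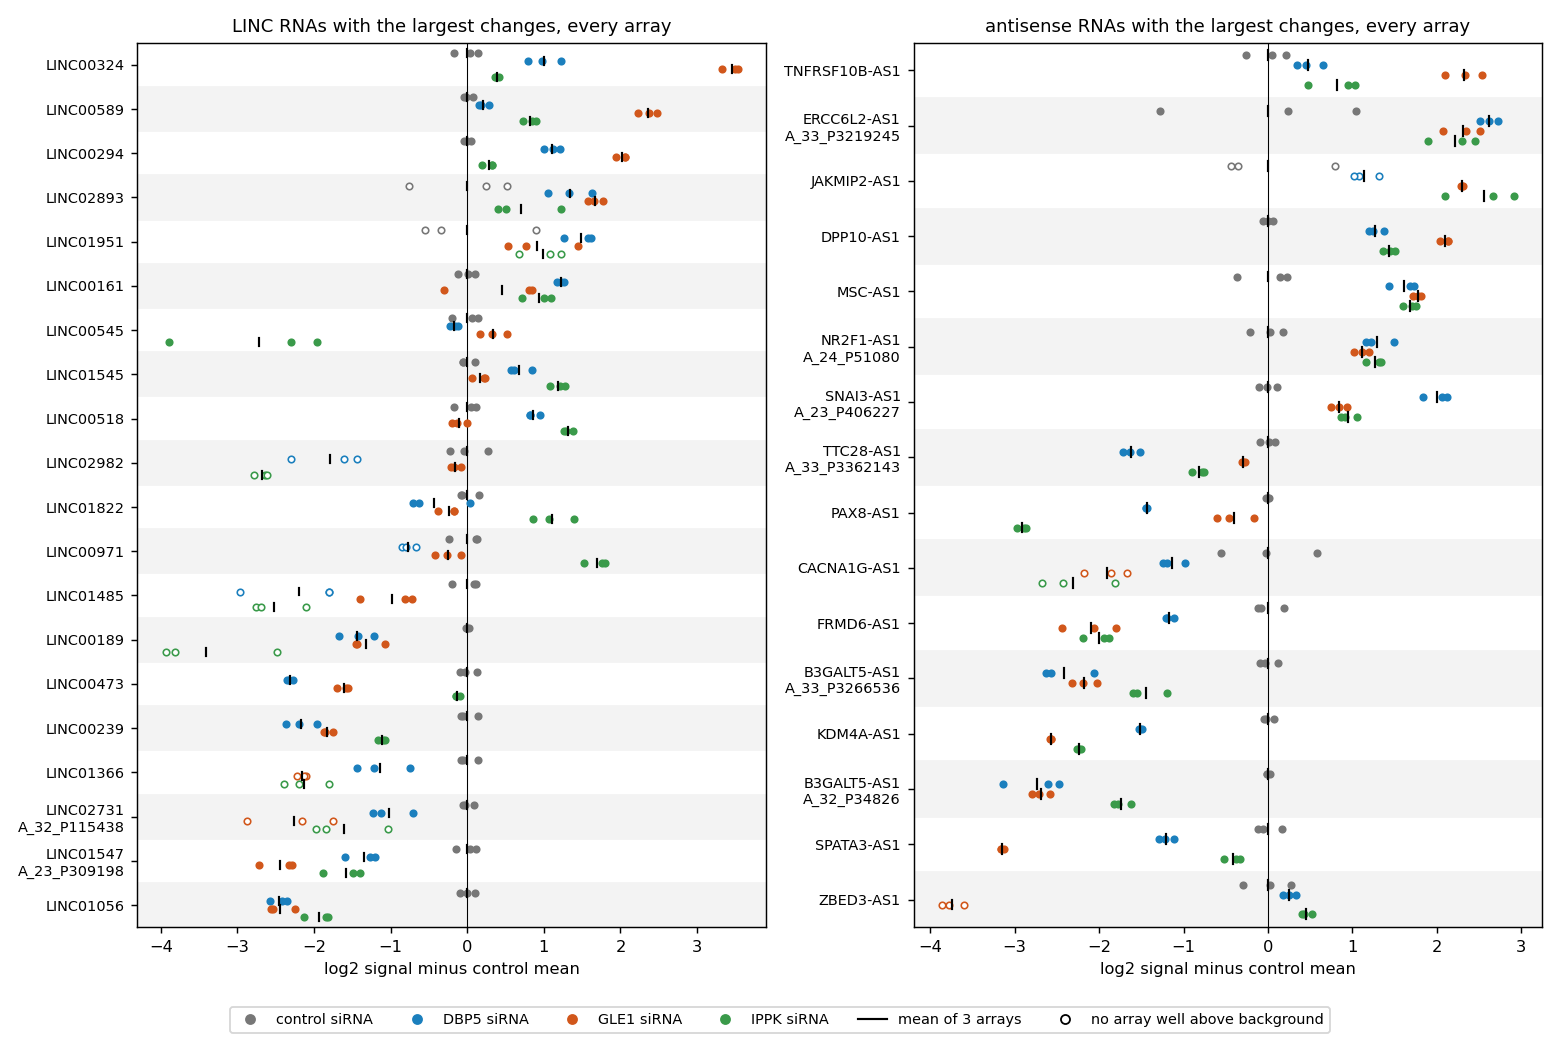
Log2 signal on every array, minus the mean of the 3 control arrays, for the LINC (left) and antisense (right) probes with the largest falls and rises in any knock-down, coloured by siRNA, with a black bar for each group mean and open points for groups with no array well above background, ordered by the GLE1 change. LINC00324 stands at 3.45 after GLE1 siRNA and LINC00473 at -2.32 and -1.62 after DBP5 and GLE1 siRNA, while KDM4A-AS1 lies at -1.51, -2.58 and -2.24.

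Probes of a gene did not always move together. Of the 50 genes of the set with more than 1 tested probe, 16, 18 and 14 had the same call at all probes after DBP5, GLE1 and IPPK siRNA, 17, 11 and 14 had no call at any, 13, 17 and 20 had a call at some, and 4, 4 and 2 had calls in both directions. Of all 4191 named genes with more than 1 tested probe, 34.3%, 42.0% and 33.5% had the same call at all probes and 6.35%, 8.02% and 6.28% had calls in both directions. No call at any probe was seen in 23.4%, 16.3% and 22.5% of them, beside 34.0%, 22.0% and 28.0% of the 50. TTC28-AS1 was 1.62 lower after DBP5 siRNA at A_33_P3362143 (8.78, 8.66 and 8.58 against 10.32, 10.38 and 10.20) and 0.43 higher at A_33_P3362148 (10.33, 10.40 and 10.45 against 9.86, 9.94 and 10.08). At these probes, designed on 2 RefSeq transcripts, neither comparison overlapped (adjusted p = 3.1e-08 and 0.00022), and the third TTC28-AS1 probe, near the background, was called in none. ERCC6L2-AS1 was lower in all 3 knock-downs at A_33_P3223660 (-0.67, -0.61 and -0.80) and higher at A_33_P3219245, on another transcript and above background on 1 control array (2.62, 2.31 and 2.22, or 0.63, 0.48 and 0.50 with normexp).

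The antisense RNAs were set beside the genes they are named for. Of the 200 antisense genes tested, 171 had a partner that was tested, 24 a partner below the filter and 5 a partner with no probe. Each gene of a pair was represented by its brightest probe. The shares below of antisense RNAs, partners and all probes are thus not matched for brightness. Among these 171 pairs the antisense RNA was lower in 61, 78 and 74 and higher in 31, 34 and 29 after DBP5, GLE1 and IPPK siRNA, and the partner lower in 51, 49 and 55 and higher in 61, 69 and 62. In percent the antisense RNAs were lower in 35.7, 45.6 and 43.3 and the partners in 29.8, 28.7 and 32.2, beside 27.2, 31.0 and 27.7 of all probes. The antisense RNAs were higher in 18.1, 19.9 and 17.0 and the partners in 35.7, 40.4 and 36.3, beside 27.1, 31.0 and 27.4 of all probes. Both RNAs of a pair were called in 64, 83 and 71 pairs. Both fell in 19, 34 and 28 and both rose in 13, 14 and 13. The antisense RNA fell while the partner rose in 23, 26 and 23, and the reverse was seen in 9, 9 and 7. Whether pairs moved together or apart more often than these separate counts give was not tested. The median log2 change was -0.11, -0.23 and -0.19 for the antisense RNAs and 0.04, 0.10 and 0.02 for the partners. Across the pairs Pearson's r was 0.045, 0.272 and 0.145 and Spearman's rho 0.08, 0.253 and 0.159, given as a description, since the pairs share arrays and are not independent.
FRMD6-AS1 was among the pairs that parted in every knock-down, with FRMD6 0.84, 0.63 and 0.68 higher (adjusted p = 4.4e-06, 2.7e-05 and 2.0e-05). KDM4A was 0.47 and 0.58 higher after GLE1 and IPPK siRNA, where KDM4A-AS1 fell, and had 0.10 after DBP5 siRNA (adjusted p = 0.599). DLGAP1 was 0.58 and 0.77 higher after DBP5 and GLE1 siRNA, where DLGAP1-AS1 fell. NR2F1-AS1, named for an orphan nuclear receptor gene, rose by 0.37, 0.40 and 0.46 at its brighter probe while NR2F1 changed by 0.50, -0.44 and 0.90, all called. Overlap of the 2 transcripts in each pair was not examined.

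**Figure D5:**
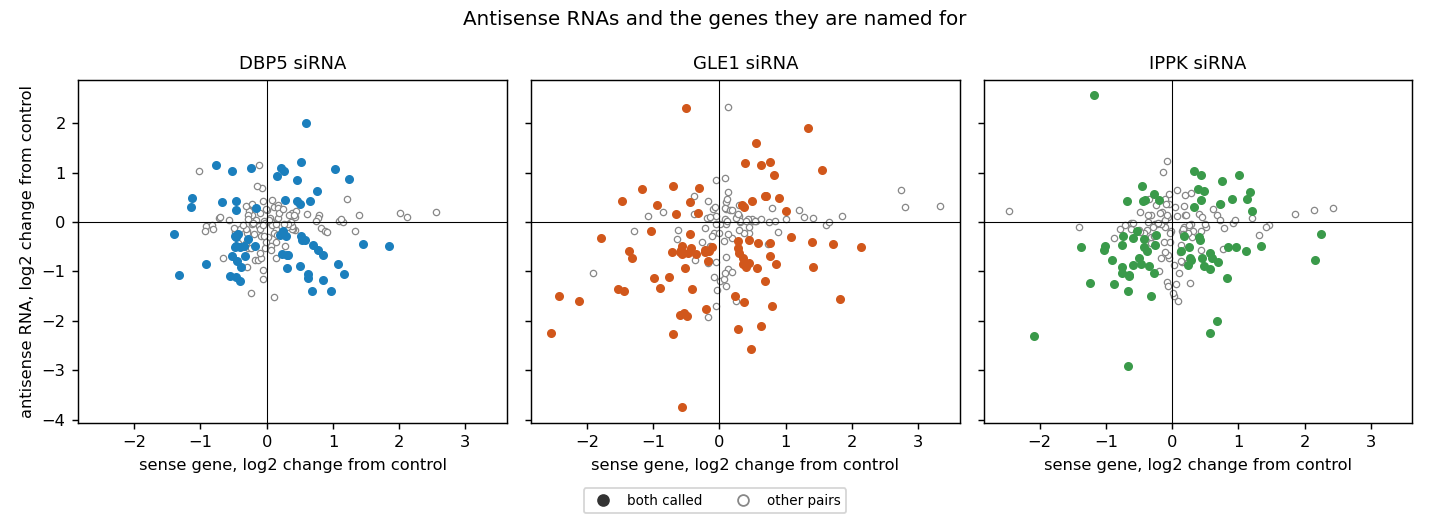
Log2 change from control siRNA of each of 171 antisense RNAs (vertical) against that of the gene it is named for (horizontal), 1 panel per siRNA, with filled points where both were called and open points for other pairs. Filled points lie in all 4 quadrants, with 34 pairs lower for both and 26 with a lower antisense RNA and a higher partner after GLE1 siRNA.

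Setting the knock-downs against each other over the whole set, GLE1 against DBP5 siRNA had 128 probes lower (24.6%) and 124 higher (23.8%), where 27.8% and 26.6% of all probes were. GLE1 against IPPK siRNA had 136 lower (26.2%) and 148 higher (28.5%), where 30.4% and 29.7% of all probes were. DBP5 against IPPK siRNA had 97 lower (18.7%) and 116 higher (22.3%), where 24.9% and 23.9% of all probes were. With a 1.5-fold minimum as well, DBP5 against IPPK siRNA had 46 lower (8.85%) and 59 higher (11.3%), where 9.37% and 9.69% of all probes were. GLE1 against DBP5 siRNA had 80 (15.4%) and 58 (11.2%), where 13.5% and 11.5% were. GLE1 against IPPK siRNA had 81 (15.6%) and 80 (15.4%), where 15.6% and 14.1% were. Without that minimum the set thus differed between knock-downs in no larger a share than all probes in either direction. With it, the set had the larger share of probes higher in DBP5 and in GLE1 than in IPPK cells, and lower in GLE1 than in DBP5 cells.

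Genes of the pathways that handle these RNAs were measured from fixed lists, to be read against the 27.2%, 31.0% and 27.7% of all probes called lower and the 27.1%, 31.0% and 27.4% called higher after DBP5, GLE1 and IPPK siRNA. Each gene was represented by its brightest probe, while these shares cover all probes, bright and dim. Of 14 paraspeckle and speckle proteins, which hold nuclear RNAs, 5 were lower and 6 higher after DBP5 siRNA, 8 and 3 after GLE1 siRNA, and 3 and 5 after IPPK siRNA. Of 14 genes of nonsense-mediated decay, 8, 8 and 7 were lower and 3, 4 and 2 higher after DBP5, GLE1 and IPPK siRNA. Of 18 tested genes of the nuclear exosome and its cofactors, which degrade nuclear RNA, 6, 13 and 9 were lower and 4, 1 and 5 higher. Of 10 proteins of snoRNA particles, 7, 6 and 4 were lower and 1, 2 and 3 higher. The median log2 changes were -0.16, -0.28 and 0.01 for the paraspeckle and speckle list, -0.30, -0.36 and -0.21 for nonsense-mediated decay, -0.08, -0.34 and -0.10 for the exosome and -0.23, -0.29 and -0.01 for the snoRNA particles, beside -0.02, 0.02 and -0.02 for all probes. With 10 to 18 genes a list, several counts lie within a few genes of the share of all probes, such as the 5 lower and 6 higher of the paraspeckle list after DBP5 siRNA. Whether these genes bear on the levels of the long non-coding RNAs was not tested.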

How the data were processed

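Cytoplasmic RNA of U2OS cells of 4 siRNA groups was labelled with a single dye and hybridised to 12 Agilent arrays, 3 per group, on 3 slides. The authors deposited a scanner file per array, whose processed intensity had been background-subtracted by the scanner software, and a table of log2 values that they had normalized by LOESS in R. The deposited log2 table correlated with the subtracted log2 signal at r of 0.961 to 0.967 per array, each column had a median near 7.75, and it was used as an alternative. The flags for signal well above background, outlier and saturation came from the scanner files, and 169 to 358 outlier spots per array were left out.

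Spots of a probe were averaged, log2 intensities were normalized between arrays by cyclic loess, and limma 3.58.1 in R 4.3.3 (lmFit and eBayes) was fitted to all 25879 probes above background on 3 arrays of a group, with 1 mean per siRNA. Adjusted p-values are Benjamini-Hochberg over all tested probes of a contrast, called under 0.05. Control spots and probes below the filter were left out. Probes were named by matching their accession to RefSeq, and 166 NR_ probes had no match and lie outside the set. The script was tested on simulated data with 200 of 25873 probes changed, of which 82.5%, 83.5% and 84.5% were recovered for DBP5, GLE1 and IPPK against control, with 5, 11 and 11 false calls. The planted changes were 0.8 or 1.5 on the log2 scale, and the simulated arrays had no slide effect. Recovery of smaller changes, and false calls with as many changed probes as in the real data, were not tested.

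The replicate number of the labels was also the slide, and each slide held 1 array of each siRNA. Deviations from the group means correlated at 0.309 to 0.486 between arrays of the same number and at -0.263 to -0.040 between others, so the numbers pair the arrays, and the number was tried as a block. The other alternatives were quantile normalization, a scaling by each array's 75th percentile, the authors' log2 values, normexp on the median signal with an offset of 50, other filters, 1 probe per gene name, the 6 arrays compared alone, the paired t-test that the methods name for statistics in general (their array gene lists came from rank products), a 1.5-fold minimum and leaving out each array.

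The number of arrays limits the precision. Genes named are the siRNA targets, all tested members of the small classes, and LINC and antisense probes from among the 4 largest falls and rises per knock-down or with calls in both directions. Members and lists were chosen with earlier results of these data known. Python 3.11.15, pandas 2.3.3, scipy 1.17.1 and matplotlib 3.10.9 were used for summaries and plots.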

Additional observations from a re-analysis of the deposited data

Results flagged for a closer look

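For 10 long non-coding RNAs, changes of opposite sign, each of at least 1.5-fold, were called against control in 2 knock-downs and the direct contrast of those knock-downs, fitted with limma across all probes, was called too. They are 1.92% of the 520 probes, beside 2.47% of all 25879 tested probes that met the same rule. Members with a smaller change on 1 side, such as LINC02487, are not listed. SNHG1 was 1.55 higher on the log2 scale in GLE1 than in DBP5 cells (adjusted p = 1.95e-08). LINC00640 and LINC00511 were 1.92 and 1.65 higher in GLE1 than in IPPK cells (adjusted p = 1.8e-09 and 5.69e-08). SOX9-AS1 differed by -1.65 between GLE1 and IPPK cells (adjusted p = 8.38e-08), being lower after GLE1 siRNA. LINC02139 differed by -1.93 between GLE1 and DBP5 cells and by -1.72 between GLE1 and IPPK cells (adjusted p = 2.31e-08 and 3.16e-08). LINC01590 differed by -1.63 between DBP5 and IPPK cells (adjusted p = 2.06e-06), with 2 of 3 DBP5 arrays above background.

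The other 4 rest on groups with no array above background, so their fitted differences are not measured on both sides, LINC01348, LINC01443 and LINC00343 were tested through their GLE1 arrays alone and so had to be higher there, and for 3 of them a call against control was lost under other background settings. LINC00971 differed by -2.46 between DBP5 and IPPK cells (adjusted p = 1.41e-07), at least 4.81-fold lower in DBP5 cells. LINC01348 differed by 2.06 between GLE1 and DBP5 cells (adjusted p = 0.000409), at least 2.49-fold. LINC01443 and LINC00343 differed by 2.25 and 1.94 between GLE1 and IPPK cells (adjusted p = 7.81e-05 and 0.000145), at least 2.26-fold and 1.42-fold. The DBP5 change of LINC01348, -0.90 against a control with 1 of 3 arrays above background, lost its call with normexp (-0.12), on the authors' values (-0.12), without a filter on dim probes, on the 6 arrays compared alone and on leaving out any array other than DBP5 replicate 2, with values from -0.61 to -1.01. For LINC01443 and LINC00343 neither the control nor the IPPK arrays were above background, so their falls after IPPK siRNA have no measured size. The IPPK value of LINC00343 went from -0.74 to -0.40 without IPPK replicate 1 and to -0.03 and -0.01 with normexp and on the authors' values, and its call was also lost with quantile normalization, with the replicate block and on leaving out most single arrays. The GLE1 call of LINC01443, at 0.98, was lost with normexp and on the authors' values, at 0.14 in both.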

How the results depend on the processing

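Against control, lower calls outnumbered higher calls in each knock-down under every alternative run, and no named probe changed sign with a call. Between knock-downs the balance was closer and turned: GLE1 against DBP5, with 128 lower and 124 higher, gave 121 and 137 with scaling to the 75th percentile and 119 and 120 on the authors' values, and without a filter on dim probes GLE1 against IPPK went from 136 and 148 to 187 and 157 and DBP5 against IPPK from 97 and 116 to 138 and 131. The counts of calls in the set stayed within 1.5 times the values reported under another scaling, normexp, the authors' values, other filters, 1 probe per gene name and the 6 arrays compared alone. With the replicate number as a block, 196 probes were lower and 86 higher after DBP5 siRNA, 205 and 111 after GLE1 siRNA, 212 and 92 after IPPK siRNA, 133 and 146 for GLE1 against DBP5, 150 and 161 for GLE1 against IPPK, and 118 and 125 for DBP5 against IPPK. Among 372 values of named probes the block kept the side of the threshold in 361, lost 3 calls and gained 8. Normexp kept 338 and lost 28, the authors' values kept 330 and lost 34, and the lost calls were small changes or dim probes. The paired t-test, which the methods name for statistics in general and not for the array gene lists (made by rank product, not run here), after Benjamini-Hochberg adjustment lost 119 of the 372 and gave 93 lower and 30 higher for DBP5 siRNA, 140 and 70 for GLE1 siRNA, 127 and 45 for IPPK siRNA, 58 and 68 for GLE1 against DBP5, 99 and 112 for GLE1 against IPPK, and 33 and 42 for DBP5 against IPPK. It estimates the spread from 3 pairs per probe. A 1.5-fold minimum gave 110 and 40, 144 and 52, 119 and 35, 80 and 58, 81 and 80, and 46 and 59 in the same order. Leaving out 1 array gave 170 to 185 lower and 68 to 85 higher for DBP5, 179 to 200 and 90 to 106 for GLE1, 178 to 196 and 69 to 80 for IPPK, 119 to 130 and 113 to 126 for GLE1 against DBP5, 127 to 140 and 135 to 150 for GLE1 against IPPK, and 83 to 98 and 106 to 115 for DBP5 against IPPK. Fold sizes of probes near the background depend on the background correction, and 7, 8, 19 and 34 tested members were above background on no control, DBP5, GLE1 and IPPK array. Naming unmatched accessions by the array's own gene names was not run, since the scanner files used here carry no such column.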
